A study of Mus musculus with 12 samples.

Results

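The genes described here are 9 mouse genes of cell junctions, the apical cell surface and cell polarity, namely Pkp2, Cldn12, Cdh6, Podxl, Shroom3, Cdh2, Tjp1, Pard3 and Ptpn13. On the array they are represented by 21 of 45037 probe sets, a probe set being the group of short oligonucleotides whose signals are combined into 1 value, and the 9 genes are among 17097 with at least 1 probe set tied to a single gene. Members were taken by gene symbol, and each probe set was kept apart. The 9 were chosen with their changes on these arrays already known, so their differences, and the calls made on them, are given as a description and support nothing further.

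RNA came from embryonic mouse brain on a mixed genetic background, on 12 arrays in 4 groups of 3. In the YAP experiment, E11.5 forebrain and midbrain came from embryos carrying TetO-YAP1 and Nes-rtTA, in which doxycycline induces the mutated YAP1-S127A in cells where the Nestin promoter is active, and from control embryos with Nes-rtTA alone. The dams were fed doxycycline at 200 mg/kg from E7.5. In the Nf2 experiment, E13.5 dorsal telencephalon came from Nf2F/F;Emx1-Cre embryos and from Nf2F/+;Emx1-Cre controls, so the controls also carried the Cre and had lost 1 copy of Nf2 in the recombined cells. Both manipulations act in progenitors or regions of the dissected piece, while the RNA came from the whole piece. In such bulk tissue, fewer cells of a type and less RNA per cell cannot be told apart.

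Neural progenitors are epithelial cells. They are joined near the ventricular surface by adherens junctions built on N-cadherin (Cdh2), with scaffolds such as ZO-1 (Tjp1) beneath them, and a polarity complex that includes Par3 (Pard3) marks the apical side. Cells that become neurons lose these contacts as they leave the surface. YAP is a transcriptional co-activator that works through TEAD proteins and is held back by the Hippo kinases, and Merlin, the product of Nf2, acts upstream of those kinases at junctions and the cell cortex.

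The deposited values were log2 intensities, and a difference of 1 is a doubling. Median intensity per array was 5.03 to 5.10 for the YAP experiment but 4.30 to 4.42 for the Nf2 experiment, so levels were compared only within an experiment. A linear model with moderated standard errors (limma) was fitted to all probe sets, and a probe set counts as called (written below as rose or fell) at a two-sided Benjamini-Hochberg adjusted p under 0.05 over all 45037. With YAP overexpression 1704 probe sets (3.78%) were called, 667 higher (1.48%) and 1037 lower (2.3%), and median-centred arrays gave 794 higher and 819 lower. With Nf2 loss 60 (0.133%) were called, 51 higher (0.113%) and 9 lower (0.02%). Dropping control replicate 1 or 3 left 999 or 784 YAP calls, and dropping overexpression replicate 1 or 3 left 1031 or 1052. The Nf2 count was 26, 27 and 25 without control replicates 1, 2 and 3, and 21, 21 and 32 without knockout replicates 1, 2 and 3. The brightest probe sets of the manipulated genes were not called, with Yap1 at a log2 difference of 0.27 (SE 0.08, adjusted p = 0.0957 by limma) in the YAP experiment and Nf2 at -0.38 (SE 0.10, adjusted p = 0.393) in the Nf2 experiment. Whether those probes match the transgene or lie in the deleted part is not known here.

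Most of the 9 genes rose with YAP overexpression, by different amounts. Of the 21 probe sets 12 rose and none fell, in 8 of the 9 genes, against 1.48% of all probe sets called higher. With Nf2 loss 6 of the 21 rose and none fell, in 5 genes, against 0.113% of all called higher. Every manipulated array lay above every control for 13 of the 21 with YAP overexpression (7.89% of all probe sets, 10.3% the other way, 18.2% in all) and for 11 of the 21 with Nf2 loss (5.39%, 5.38% and 10.8%). The median log2 difference of the 21 was 0.40 and 0.32, where the median of all probe sets was -0.01 and 0. Because both contrasts were known when the genes were chosen, nothing is read from these shares.

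**Figure D1:**
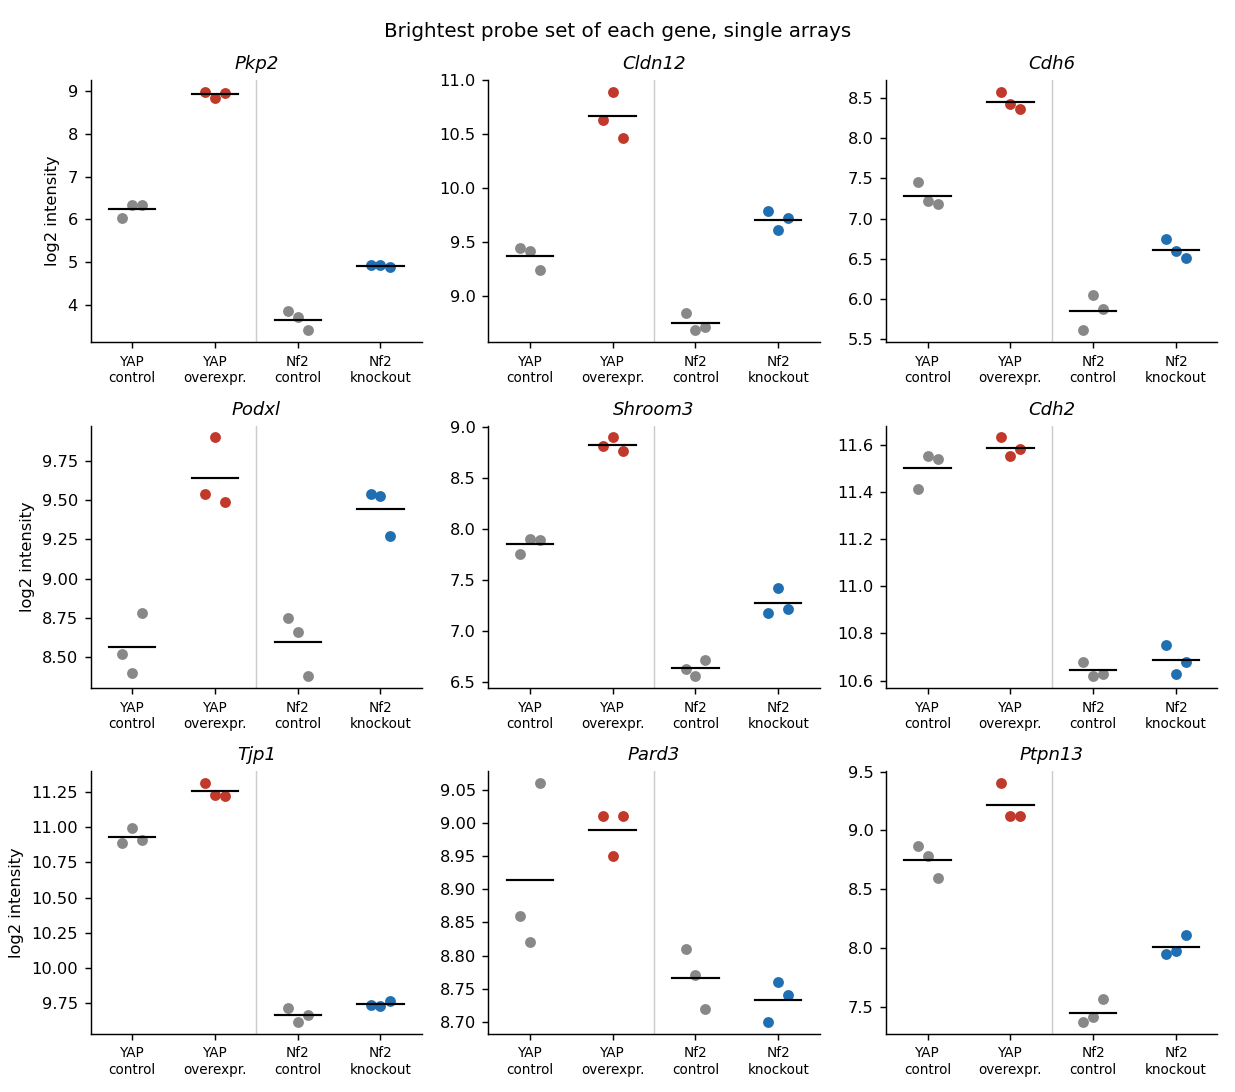
Log2 intensity of the brightest probe set of each of the 9 genes, 1 point per array and a line at the group mean, with a separate vertical scale for each gene. Pkp2, Cldn12, Cdh6, Podxl, Shroom3, Tjp1 and Ptpn13 were higher in all 3 manipulated arrays of both experiments, and Cdh2 and Pard3 overlapped.

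Pkp2 encodes plakophilin 2, an armadillo-repeat protein of the desmosomal plaque, the junction that ties intermediate filaments to the membrane. Its brighter probe set (1449799_PM_s_at) read 6.04, 6.33 and 6.33 in YAP controls and 8.99, 8.85 and 8.97 with overexpression. All 3 overexpression arrays stood far above the controls, and the difference was 2.70 (SE 0.11), or 6.51-fold. In Nf2 controls it read 3.84, 3.70 and 3.40, below the array medians, and in knockouts 4.93, 4.92 and 4.88, above them. The groups again did not overlap, and the measured difference was 1.26 (SE 0.11). That is 2.40-fold as measured. The controls (mean 3.65) read near the level of probe sets for genes not known from this tissue. Among these, the skin keratin genes Krt5 and Krt14 had means of 3.41 and 2.90. Near such a level a difference can be understated, and whether this one was understated was not tested. The gene's other probe set (1420259_PM_at), built on the same platform accession, showed no such change. It read from 4.24 to 4.64 over the 6 arrays of the YAP experiment and from 2.82 to 3.20 over the 6 of the Nf2 experiment, below the array medians throughout, with differences of 0.14 (SE 0.11) and 0.01 (SE 0.11). The rise of Pkp2 thus rests on 1 probe set, whose _s_at name marks probes that may match more than 1 transcript.

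Cldn12 encodes claudin 12, a membrane protein of the tight junction family. Both of its probe sets rose in both experiments. The brighter one (1433781_PM_a_at) read 9.44, 9.41 and 9.24 in YAP controls against 10.63, 10.89 and 10.46, a difference of 1.30 (SE 0.11) or 2.46-fold. In Nf2 controls it read 8.84, 8.68 and 8.71, and in knockouts 9.78, 9.61 and 9.72, a difference of 0.96 (SE 0.11) or 1.95-fold. Neither pair of groups overlapped. The other probe set (1433782_PM_at) gave nearly the same sizes, 1.31 (SE 0.14) with YAP overexpression and 1.05 (SE 0.14) with Nf2 loss. The arrays did not overlap there either.

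Cdh6 encodes a type II classical cadherin, a calcium-dependent adhesion molecule that marks regional subdivisions of the embryonic brain. Its brighter probe set (1442257_PM_at) read 7.46, 7.22 and 7.18 in YAP controls and 8.58, 8.43 and 8.36 with overexpression, a rise of 1.17 (SE 0.12) or 2.25-fold. With Nf2 loss it went from 5.61, 6.05 and 5.88 to 6.74, 6.59 and 6.51, a rise of 0.77 (SE 0.12) or 1.7-fold. The groups stood apart in both cases, but the probe sets did not tell the same story in the Nf2 experiment. The dimmer one (1450288_PM_at) rose by 0.67 (SE 0.12) with YAP overexpression, from 4.95, 4.92 and 4.77 to 5.33, 5.64 and 5.68. With Nf2 loss it read 4.06, 4.23 and 4.20 against 4.38, 4.0 and 4.23, which overlapped, and the difference was 0.04 (SE 0.12).

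Cdh2, N-cadherin, is the main cadherin of the progenitors' adherens junctions. Its brighter probe set (1418815_PM_at) read 11.41, 11.55 and 11.54 in YAP controls and 11.63, 11.55 and 11.58 with overexpression, which touched at 11.55, a difference of 0.09 (SE 0.07). Its other probe set (1449244_PM_at) went from 10.88, 10.71 and 10.91 to 11.12, 11.36 and 11.17 without overlap, a rise of 0.38 (SE 0.09) or 1.30-fold. Both sit on the same platform accession, so the array gave a change on 1 and not on the other. With Nf2 loss neither was called, at 0.04 (SE 0.07) and 0.01 (SE 0.09), and the groups overlapped on both. The call in the YAP experiment was lost without control replicates 1, 2 or 3 and without overexpression replicates 2 or 3, with differences of 0.31 to 0.42.

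Podxl encodes podocalyxin, a sialomucin of the apical membrane. Its brighter probe set (1448688_PM_at) went from 8.52, 8.4 and 8.78 in YAP controls to 9.54, 9.90 and 9.49, a rise of 1.08 (SE 0.14) or 2.11-fold. In the Nf2 experiment it went from 8.75, 8.66 and 8.38 to 9.54, 9.53 and 9.27, a rise of 0.85 (SE 0.14) or 1.80-fold. The lowest manipulated array lay above the highest control in both. The dimmer probe set (1417396_PM_at) differed by 0.33 (SE 0.13) and 0.40 (SE 0.13) in the same direction, was not called in either experiment, and overlapped in the YAP experiment, where overexpression replicate 3 read 4.56 and control replicate 2 read 4.56 as well. Without overexpression replicate 3 it was called, at 0.495.

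Shroom3 encodes an actin-binding protein that narrows the apical cell surface, as in neural tube closure. It had 4 probe sets, and all 4 were higher in both experiments. The brightest (1422629_PM_s_at) went from 7.76, 7.90 and 7.89 to 8.82, 8.90 and 8.77 with YAP overexpression, a rise of 0.98 (SE 0.09) or 1.97-fold. With Nf2 loss it went from 6.63, 6.56 and 6.72 to 7.18, 7.42 and 7.22, a rise of 0.64 (SE 0.09) or 1.55-fold. No manipulated array reached down to its controls. Of the other 3, the _a_at probe sets rose with YAP overexpression by 0.95 (SE 0.13) and 0.88 (SE 0.15), and the dimmest, an _x_at probe set, differed by 0.40 (SE 0.15) without a call. With Nf2 loss these 3 differed by 0.51 (SE 0.13), 0.41 (SE 0.15) and 0.28 (SE 0.15), none called, and the groups of the first pair did not overlap.

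Of these genes, Cldn12, Cdh6 and Shroom3 were called in both experiments on the brightest probe set and had an entry in the RefSeq promoter table (GRCm38.p6). The 250 bases before their most upstream listed start are printed to show the DNA next to genes that moved together. Capitals mark CG dinucleotides, the sites of vertebrate DNA methylation. Cldn12 lies on the minus strand, chr5:5514977-5515226, Cdh6 on the minus strand, chr15:13173676-13173925, and Shroom3 on the plus strand, chr5:92809132-92809381.
Cldn12: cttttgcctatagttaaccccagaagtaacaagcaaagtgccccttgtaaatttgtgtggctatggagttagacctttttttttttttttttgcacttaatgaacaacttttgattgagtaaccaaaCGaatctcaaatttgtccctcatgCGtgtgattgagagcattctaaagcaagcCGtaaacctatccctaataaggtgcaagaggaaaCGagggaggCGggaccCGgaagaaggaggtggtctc
Cdh6: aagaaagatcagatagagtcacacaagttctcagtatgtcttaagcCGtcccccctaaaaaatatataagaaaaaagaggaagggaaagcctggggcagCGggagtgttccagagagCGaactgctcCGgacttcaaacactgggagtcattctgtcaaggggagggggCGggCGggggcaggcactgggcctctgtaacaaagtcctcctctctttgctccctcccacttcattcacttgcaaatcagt
Shroom3: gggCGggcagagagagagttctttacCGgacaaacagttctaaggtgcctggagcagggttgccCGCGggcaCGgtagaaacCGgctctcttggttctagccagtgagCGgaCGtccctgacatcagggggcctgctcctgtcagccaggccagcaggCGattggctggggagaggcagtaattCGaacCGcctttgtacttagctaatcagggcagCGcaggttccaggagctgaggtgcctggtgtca
Cldn12 and Cdh6 held 6 CG dinucleotides each, the median of all promoters, and Shroom3 held 12. The other 2 listed starts of Cldn12 had 16 and 20, and the other start of Shroom3 had 27. G and C made up 42.0%, 51.2% and 60.4% of the bases, against a median of 52.4%. The core bound by TEAD proteins, GGAATG, was searched on both strands over 250 bases before to 50 after each start. It was in none of 10 promoters of 6 members (these 3 and Tjp1, Pard3 and Ptpn13), and in 14.7% of 32851 promoters in the table. This says only that these letters are not in this window.

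Tjp1 encodes ZO-1, a scaffold that links junction membrane proteins to actin. Its single probe set (1417749_PM_a_at) read 10.89, 10.99 and 10.91 in YAP controls and 11.31, 11.23 and 11.22 with overexpression, a rise of 0.32 (SE 0.07) or 1.25-fold. In the Nf2 experiment it read 9.72, 9.62 and 9.67 against 9.74, 9.73 and 9.77. The knockouts were just above the controls, and the difference of 0.08 (SE 0.07) was not called. The YAP call was lost without control replicates 1 or 3 or overexpression replicate 1, with differences of 0.29 to 0.31.

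Pard3 encodes Par3, the scaffold of the apical Par complex. None of its 4 probe sets was called in either experiment. The brightest (1434775_PM_at) read 8.86, 8.82 and 9.06 in YAP controls and 9.01, 8.95 and 9.01 with overexpression. It read 8.81, 8.77 and 8.72 in Nf2 controls and 8.70, 8.76 and 8.74 in knockouts. The groups overlapped on every Pard3 probe set in both experiments. Differences ran from -0.16 to 0.09 with YAP overexpression and from -0.03 to 0.32 with Nf2 loss, and both the -0.16 and the 0.32 came from the dimmest probe set (SE 0.17).

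Ptpn13 encodes a large cytoplasmic tyrosine phosphatase with a FERM domain and several PDZ domains. Its brighter probe set (1452127_PM_a_at) read 8.87, 8.78 and 8.59 in YAP controls and 9.40, 9.12 and 9.12 with overexpression, a rise of 0.47 (SE 0.10) or 1.38-fold. In the Nf2 experiment it went from 7.37, 7.41 and 7.56 to 7.95, 7.97 and 8.11. The groups did not overlap, but the difference of 0.56 (SE 0.10), or 1.48-fold, was not called over all probe sets. It was called when 1 probe set per gene was tested, with array weights and with an intensity trend in the variance. The dimmer probe set (1431791_PM_a_at) differed by -0.13 (SE 0.13) and 0 (SE 0.13), with overlap in both. The YAP call was lost without control replicates 2 or 3 or overexpression replicate 1, with differences of 0.37 to 0.48.

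**Figure D2:**
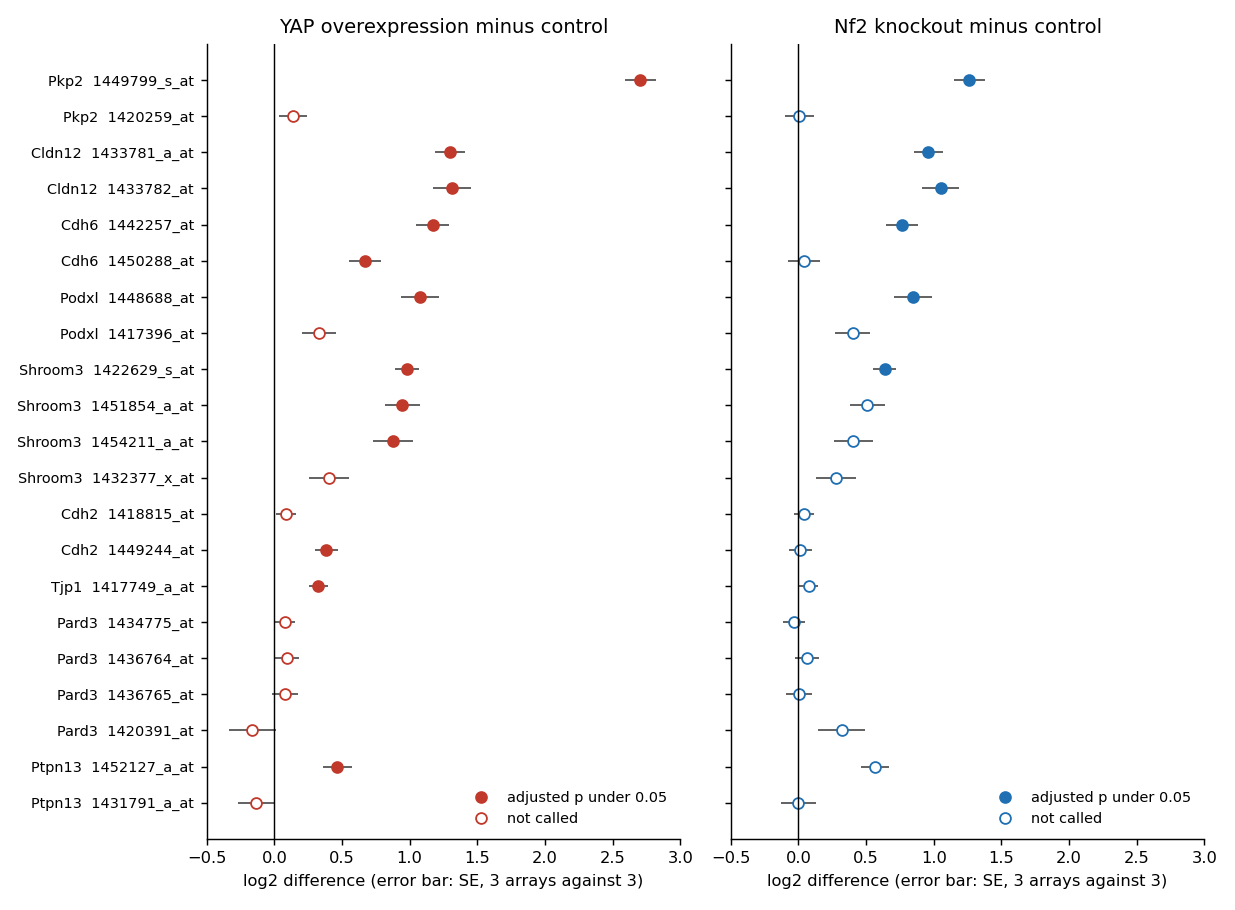
Log2 difference of each of the 21 probe sets from the controls of its experiment, with the standard error of the fit (3 arrays against 3), filled where the adjusted p was under 0.05. Pkp2 gave the largest difference in both experiments, 2.70 and 1.26, on 1 of its 2 probe sets, and the 4 Pard3 probe sets lay between -0.16 and 0.32.

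In the Nf2 experiment arrays with the same replicate number varied together, so same-numbered arrays were also treated as pairs. No label states such pairs. Within the pairs, Pkp2 differed by 1.09, 1.22 and 1.48 and Cldn12 by 0.94, 0.93 and 1.01 on their brighter probe sets. Podxl differed by 0.79, 0.87 and 0.89, Ptpn13 by 0.58, 0.56 and 0.55, and Shroom3 by 0.55, 0.86 and 0.50. Of these 6, Cdh6 had the widest range over pairs, at 1.13, 0.54 and 0.63. With the replicate block 3 of the 6 calls were kept, those of Pkp2 and both Cldn12 probe sets, and those of Cdh6 (0.77, SE 0.12), Podxl (0.85, SE 0.13) and Shroom3 (0.64, SE 0.10) were lost. With any 1 of the 6 Nf2 arrays left out 3 calls were made as well. These were not always the same 3. Pkp2 and the brighter Cldn12 probe set kept the call each time, and Podxl lost it each time. With the 6 arrays left out in turn, the other Cldn12 probe set lost its call 4 times, Cdh6 5 times and Shroom3 3 times.

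The 6 probe sets that rose with Nf2 loss all rose with YAP overexpression too, which makes them 100% of the members' Nf2 calls and 50% of their YAP calls. Over all probe sets 44 rose in both, 86.3% of the 51 Nf2 calls and 6.6% of the 667 YAP calls, so sharing was the usual case among Nf2 calls. The experiments share no arrays, but differ in age, tissue and manipulation. Both effects took their standard error from the same fit, so calls in the 2 experiments are not independent. The difference between the 2 effects was tested for each probe set in the same fit (0.12% of all probe sets called, 0.0733% higher and 0.0466% lower). It was called for 1 member, Pkp2, with a measured gap of 1.44 (SE 0.16). Because the Nf2 controls of Pkp2 read low, its Nf2 effect may be understated and this gap overstated. This was not tested, so the call alone does not show that the YAP effect was larger. With 95% intervals, the gap (YAP effect minus Nf2 effect) was 0.34 for the brighter probe set of Cldn12, from 0.0044 to 0.67. For its other probe set it was 0.26, from -0.16 to 0.69. For Cdh6 it was 0.40 on the brighter probe set, from 0.035 to 0.77, and 0.63 on the other, from 0.27 to 0.99. None of these gaps was called. Those of Podxl (0.23, from -0.20 to 0.66), Shroom3 (0.34, from 0.077 to 0.61) and Tjp1 (0.25, from 0.032 to 0.46) were not called either. Ptpn13 lay the other way, at -0.10, with an interval from -0.42 to 0.22. These intervals are not adjusted for the number of probe sets.

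**Figure D3:**
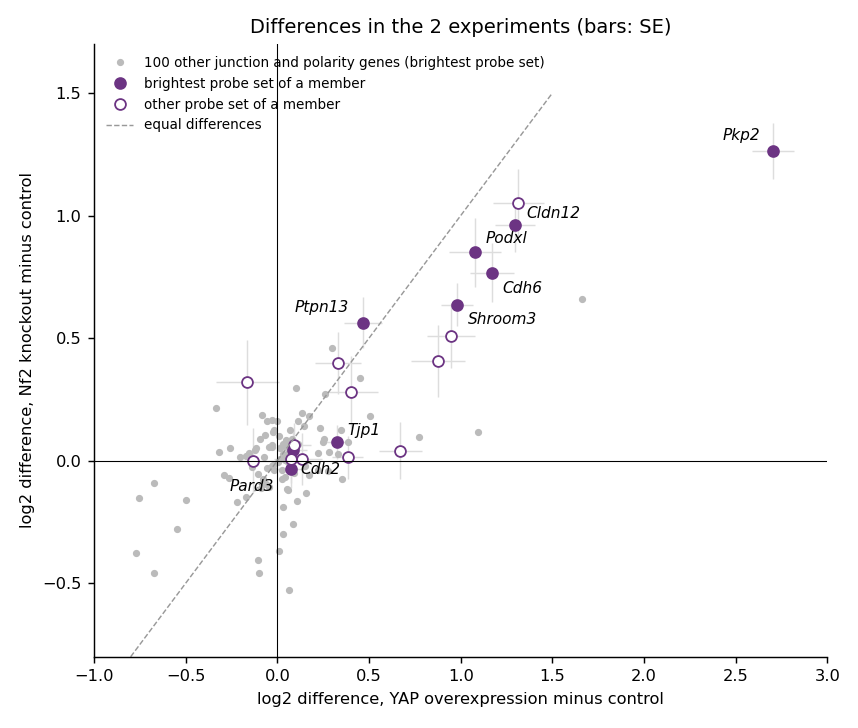
Log2 difference with YAP overexpression (horizontal) against that with Nf2 loss (vertical), purple for the 21 probe sets of the 9 genes with SE bars, grey for the brightest probe set of 100 other junction and polarity genes, dashed where both would be equal. Pkp2 lies farthest right at 2.70 and 1.26, and Ptpn13 lies above the dashed line at 0.47 and 0.56.

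Calls were more frequent among brighter probe sets. Of the 15 member probe sets with a mean over the 12 arrays at or above the median of all probe sets, 11 rose with YAP overexpression and 6 with Nf2 loss. Of the 6 below it, 1 rose with YAP overexpression (the dimmer one of Cdh6) and none with Nf2 loss. Over all probe sets, 2.69% of the upper and 0.275% of the lower part rose with YAP overexpression, and 0.213% and 0.0133% with Nf2 loss.

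The genes nearest in pattern were found for the 4 members whose brightest probe set differed by at least 1, as the smallest root mean square difference over 12 arrays, each centred on its controls. Nearest to Pkp2 were the secreted matrix protein gene Ccn1 (0.42), Steap1 (0.47) and Ajuba, a LIM protein gene of junctions (0.47). Nearest to Cldn12 were the tropomyosin gene Tpm1 (0.15), Fgfbp3 (0.16) and Csrp1 (0.19). Nearest to Cdh6 were Pawr (0.17), Wwc2 (0.18) and Scd1 (0.19), and nearest to Podxl were Wwc2 (0.15), Csrp1 (0.19) and Pawr (0.20). Pkp2 had no close neighbour on this scale, since its own differences were 2.70 and 1.26 while those of Ccn1 were 1.93 and 1.02.

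The other genes of these structures were read from 7 lists with 109 genes, 100 of them measured, each by its brightest probe set. With YAP overexpression 7 rose and 3 fell, where 2.06% of all genes rose and 2.92% fell, and the median was 0.03 against -0.01 over all genes. With Nf2 loss limma called none of the 100 (0.211% of all genes), 6 were higher and 7 lower at an unadjusted p under 0.05 (2.94% and 2.88% of all genes, 5.81% in all), and the median was 0.02 against 0.00. The YAP counts were 4 and 1 without control replicate 1, 1 lower without control replicate 3, 5 lower without overexpression replicate 2 and 1 lower without overexpression replicate 3.

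Among 16 adherens junction genes 1 rose and 1 fell, with a median of -0.02. Nectin2, an immunoglobulin-like adhesion molecule of these junctions, went from 6.52, 6.95 and 6.57 to 7.79, 7.69 and 7.84, a rise of 1.09 (SE 0.11, adjusted p = 0.000168 by limma). Its other probe set rose by 1.41 (SE 0.15). With Nf2 loss Nectin2 differed by 0.12 (SE 0.11), and it was called in the test of the difference between the 2 effects (0.98, adjusted p = 0.0308). Cdh4, R-cadherin, went from 8.30, 7.97 and 8.41 to 7.64, 7.48 and 7.29, a fall of 0.76 on the log2 scale (SE 0.13, adjusted p = 0.0071), and its other probe set fell by 0.73. The alpha-catenin gene of neurons, Ctnna2 (-0.67, adjusted p = 0.0713), p120-catenin, Ctnnd1 (0.33, adjusted p = 0.0632), beta-catenin, Ctnnb1 (-0.11) and E-cadherin, Cdh1 (-0.32) were not called. Cdh1 was dim, with a mean of 4.29 over the 12 arrays, below the median of 4.74 over all probe sets. Of 8 measured type II cadherins, the relatives of Cdh6, Cdh10 fell by 0.55 on the log2 scale (SE 0.11, adjusted p = 0.0158) and 7 were not called (median -0.18). The other probe sets of Cdh10 were not called, at -0.50 (SE 0.14) on the next brightest and -0.07 and 0.02 on the dim ones.

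None of 23 tight junction genes, relatives and partners of Cldn12 and Tjp1, was called in either experiment by limma, and at an unadjusted p under 0.05 there were 0 with YAP overexpression (18.6% of all genes, 8.23% higher and 10.4% lower) and 2 with Nf2 loss (5.81% of all genes), both lower. Their medians were 0.03 and 0.04. Those 2 were Cldn5 (-0.53) and Esam (-0.41), both also known from endothelium. Of 9 desmosomal genes, Pkp4, another armadillo protein, rose from 9.77, 9.90 and 9.80 to 10.37, 10.30 and 10.32, by 0.51 (SE 0.08, adjusted p = 0.00355), and 8 were not called. Dsp, which encodes desmoplakin, the plaque protein that plakophilins bind, differed by 0.01 (adjusted p = 0.99). Many genes of these 2 lists were dim, with a mean over the 12 arrays below 4.74, the median of all probe sets. Examples are Cldn7 (3.64), Cldn4 (4.08) and Dsp (4.25), and of the desmosomal genes only Pkp4 lay above it. With YAP overexpression 0.502% of all probe sets below that median were called, against 7.06% of the others. For such dim genes a missing call does not show that they were unchanged.

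Of 23 genes of the polarity complexes 2 rose and 21 were not called (median 0.03). They were Prkci, the atypical protein kinase C of the Par complex (0.38, SE 0.08, adjusted p = 0.0137), and Mpp5, whose product Pals1 belongs to the Crumbs complex (0.35, SE 0.09, adjusted p = 0.0491). The other Prkci probe set, which was dim (mean 4.23), differed by 0.14 (SE 0.16) and was not called. Pard6b (-0.07), Cdc42 (0.03) and Crb1 (-0.12) were not called, and Crb1 was dim, with a mean of 3.92 over the 12 arrays. Of 17 genes of the apical membrane and apical constriction 1 rose and 1 fell, with a median of 0.08. Shroom2, a relative of Shroom3, went from 8.47, 8.43 and 8.49 to 9.05, 9.06 and 8.64, by 0.45 (SE 0.11, adjusted p = 0.0414). Its other probe set, which was dim (mean 4.04), differed by -0.04 (SE 0.15) and was not called. Podxl2, the relative of Podxl, moved against it, from 8.17, 8.12 and 8.41 to 7.72, 7.62 and 7.04, a fall of 0.77 on the log2 scale (SE 0.17, adjusted p = 0.0224).

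Of the 4 FERM-domain phosphatases related to Ptpn13, 2 rose and 2 were not called, with a median of 0.41. Ptpn14, which binds YAP, went from 7.41, 7.54 and 7.08 to 9.16, 9.23 and 8.63, by 1.66 (SE 0.18, adjusted p = 0.000344), and 1 of its other 2 probe sets was called too. Its rise was known when the lists were made. Ptpn21 went from 5.0, 4.98 and 5.18 to 5.75, 5.91 and 5.82, by 0.77 (SE 0.09, adjusted p = 0.000363). With Nf2 loss they differed by 0.66 (SE 0.18, adjusted p = 0.506) and 0.10 (SE 0.09). Of the 10 called list genes, Prkci, Cdh10, Shroom2, Mpp5 and Podxl2 lost the call with some array left out. Without control replicate 1 all 5 did, without control replicate 3 Cdh10, Shroom2, Mpp5 and Podxl2, and without overexpression replicate 1 Prkci, Shroom2 and Mpp5. Shroom2 and Mpp5 also lost it without control replicate 2 and overexpression replicate 2, and Cdh10, Mpp5 and Podxl2 without overexpression replicate 3.

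**Figure D4:**
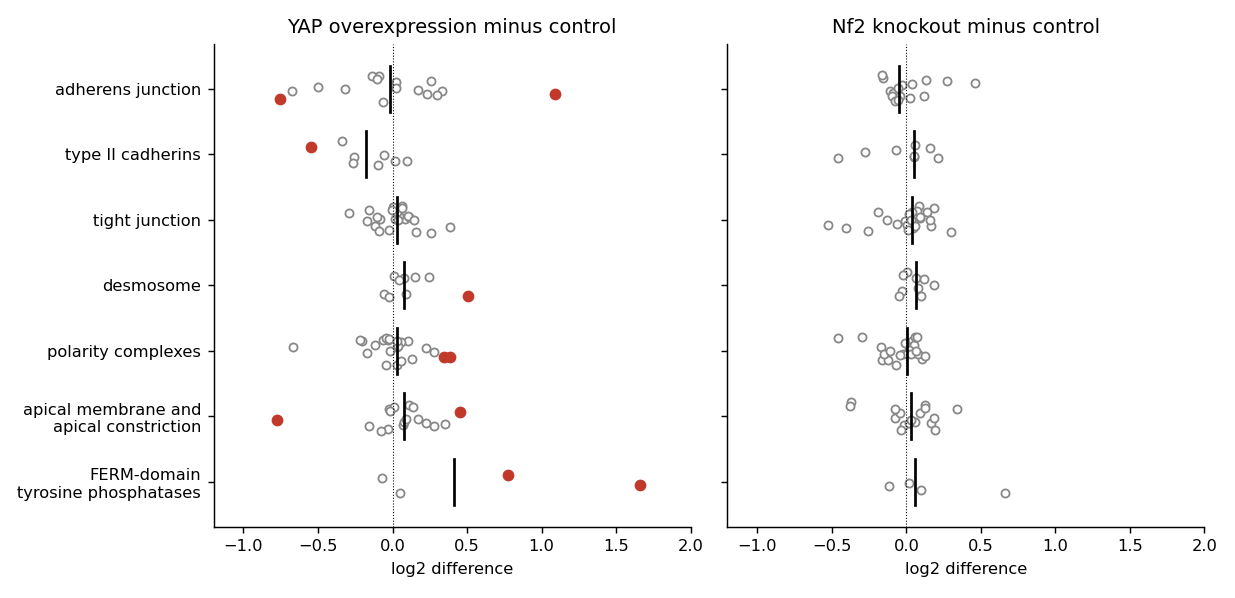
Log2 difference of 100 other junction and polarity genes by list, 1 point per gene (brightest probe set), filled where called, with a line at the list's median. With YAP overexpression 10 points are filled, from Podxl2 at -0.77 to Ptpn14 at 1.66, and with Nf2 loss none.

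Some markers of the cells in the dissected pieces moved with YAP overexpression, mainly those of neurons and of the telencephalon. Of 9 measured neuronal genes 7 fell and none rose, where 2.92% of all genes fell and 2.06% rose. The mean log2 intensity of the neuronal list was 9.78 to 10.07 in controls and 9.11 to 9.55 with overexpression. Of 10 progenitor genes 2 fell, Pax6 and Fabp7, and none rose, with list means of 9.51 to 9.65 and 9.38 to 9.58. Of 5 telencephalic genes 4 fell and none rose (8.60 to 8.93 against 8.04 to 8.22). Of 10 genes of surface ectoderm and epithelium, whose cells are rich in desmosomes, Krt19 rose and Esrp1 fell, and the list means overlapped (4.95 to 5.14 against 4.89 to 5.02). Of 7 choroid plexus genes Folr1 rose and none fell (5.03 to 5.53 against 5.33 to 5.51). None of 10 endothelial, 10 mesenchymal, 8 erythroid, 8 microglial and 6 midbrain genes was called by limma, with 0, 3, 2, 0 and 0 at an unadjusted p under 0.05 (18.6% of all genes).

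With Nf2 loss limma called no marker gene of any of the 10 lists. The list means did not overlap for endothelium (6.11 to 6.21 in controls, 5.73 to 6.08 in knockouts), erythroid cells (7.86 to 8.06 against 7.60 to 7.65) and microglia (5.68 to 5.74 against 5.95 to 6.02), with 2 of 10, 4 of 8 and 2 of 8 genes at an unadjusted p under 0.05 (5.81% of all genes). The midbrain list, below the array medians in all 6 arrays, did not overlap either (2.96 to 3.00 against 3.01 to 3.10). The part of such shifts in the members' differences was not tested.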

How the data were processed

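Biotin-labelled cRNA was made from 100 ng of RNA by an IVT kit, per the labels' protocols. The authors deposited log2 intensities, 1 per probe set. RMA, Affymetrix Expression Console 1.1 and Partek 6.5 are named, with no role, in the submitters' processing notes. Each experiment appeared to have been normalized on its own. No depth applies to arrays, and their number limits the precision. Gene names came from the platform annotation, which can be old (28898 of 45037 probe sets with 1 symbol, 551 with several, 15588 not listed), updated by Entrez ID for 28689.

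The linear model held 4 group means and used all 12 arrays and all probe sets, without a filter, with limma 3.58.1 in R 4.3.3. It was also tested on simulated data with independent errors for each array. Such data cannot show how variation shared by same-numbered arrays affects the calls. An exact permutation test of 3 against 3 cannot go below 0.1 and was not used. Replicates are numbered, but no label ties them to separate embryos, so p-values reflect only how these samples vary, possibly for technical reasons. Residuals of same-numbered arrays correlated at 0.296, 0.205 and 0.268 in the Nf2 experiment, which was taken as pairing. In the YAP experiment they correlated at 0.117, -0.141 and -0.147, which was not. Arrays with different numbers ran from -0.268 to -0.0316 in the Nf2 experiment and up to 0.260 in the YAP experiment. A correlation of this size alone therefore does not show pairing.

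Members, lists and tests were chosen with earlier results of these data known. Named are all member probe sets, up to 4 called genes with the largest difference per list and comparison, and the 3 genes nearest in pattern to a member that differed by at least 1. Other genes given with values (Ctnna2, Ctnnd1, Ctnnb1, Cdh1, Cldn5, Esam, Dsp, Pard6b, Cdc42, Crb1 and the markers) were chosen after their values were seen. Alternatives were a replicate block, each array left out, only the 6 arrays of an experiment, median and quantile scaling, a filter on dim probe sets, 1 probe set per gene, no _x_at or _s_at probe sets, array weights and an intensity trend.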

Additional observations from a re-analysis of the deposited data

How the results depend on the processing

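Under all alternatives the members' called differences kept their direction. With only the 6 arrays of the experiment 648 probe sets were called with YAP overexpression, 4 list genes rose and 1 fell, 9 member probe sets rose (Tjp1, Ptpn13 and the second Cdh2 probe set lost the call), and 3 member probe sets rose with Nf2 loss. With 1 probe set per gene 1078 genes were called with YAP overexpression, 7 of them among the 9 members tested. With the replicate block 3 member probe sets were called with Nf2 loss. In the YAP experiment, where same-numbered arrays were not taken as pairs, 4 list genes rose and 1 fell with the block. Tjp1 and the second Cdh2 probe set lost the YAP call. With an intensity trend in the variance 6 list genes fell. With 1 array left out the counts ran from 784 to 2014 for all probe sets with YAP overexpression, from 9 to 12 for the members, from 4 to 7 for list genes that rose and from 1 to 5 for those that fell, and with Nf2 loss from 21 to 32 for all probe sets and were 3 for the members. Some differences near 0 that were not called changed sign. With 1 array left out these were, with YAP overexpression, Pard3 1436764_PM_at (-0.017 to 0.16), Pard3 1436765_PM_at (-0.027 to 0.14) and Ptpn13 1431791_PM_a_at (-0.23 to 0.025), and with Nf2 loss Pkp2 1420259_PM_at (-0.087 to 0.10), Cdh6 1450288_PM_at (-0.048 to 0.14), Cdh2 1449244_PM_at (-0.01 to 0.043) and Pard3 1436765_PM_at (-0.043 to 0.045). With array weights Cdh6 1450288_PM_at stood at -0.0073 and Pard3 1436765_PM_at at -0.016 with Nf2 loss, and with quantile normalization Cdh2 1449244_PM_at at -0.0019. Dim signal limits what the array shows for 6 of the 21 probe sets. The cause of these changes was not tested.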
